A study of Mus musculus with 6 samples.

Results

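The BCL2 family is the set of proteins that decides whether the mitochondrial outer membrane of a cell stays intact or is opened in apoptosis. Here 10 of its genes were followed, chosen by gene symbol from the 55487 genes of the deposited count table: the survival genes Bcl2, Bcl2l1 and Mcl1, the pore-forming genes Bax and Bak1, and the BH3-only genes Bcl2l11, Bmf, Bid, Bik and Pmaip1. All 10 were found on 1 row each. RNA came from lymphocytes of the small-intestinal epithelium of C57BL/6J mice (genotype WT), sorted as live cells positive for CD45, the leukocyte phosphatase, and for CD3ε, a chain of the T cell receptor complex. The tested cells were B220+ and are called X cells in the labels (3 libraries), and they were set against B220− cells, called T cells (3 libraries). B220 is a CD45 form that B cells typically carry. An RXR agonist is named in the series title, but no library here is labelled as treated, and the labels give no age, no sex and no statement of how many mice each library holds. The p-values below therefore measure the spread between libraries, which may be technical.

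As background, BAX and BAK form the pores that release cytochrome c, BCL2, BCL-XL (from Bcl2l1) and MCL1 hold them in check, and BH3-only proteins such as BIM (from Bcl2l11) and BMF bind the survival proteins or activate the pore formers. In T cells, BIM is a main driver of death after cytokine withdrawal and in thymic negative selection, and BCL2 is the survival protein that interleukin-7 and interleukin-15 are known to maintain. Natural intraepithelial lymphocytes of the gut depend on interleukin-15, in part through the balance of these proteins.

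The libraries held 11320363 to 39591312 counts, and B220+ replicate 2 was the deepest. T cell transcripts were abundant in both groups, with the summed level of 9 T cell markers at 6313 to 6969 CPM (normalised counts, scaled to library size) in B220+ libraries and 6132 to 6319 CPM in B220− libraries. Of these 9, Cd247 was called lower, at 166 ± 9.01 CPM in B220+ cells and 236 ± 22.9 CPM in B220− cells (edgeR adjusted p = 0.00107). Pou2f1, on the opposite strand, shares 3007 exonic bases with Cd247 and had 26.9% as many counts, with a log2 fold change of −0.16. Trdc, given below, was called higher. Markers of other cells were low or mixed. Of the B and plasma cell markers, Ms4a1 reached no more than 0.11 CPM in any library, Cd79b stood at 29.6 to 33.0 CPM in B220+ libraries and 22.9 to 31.6 CPM in B220− libraries, and Jchain at 5.51 to 23.1 CPM in B220+ libraries and 9.70 to 96.6 CPM in B220− libraries. The summed level of 8 epithelial markers was 322 to 364 CPM in B220+ libraries and 290 to 354 CPM in B220− libraries, most of it Cdh1, while Vil1 and Fabp1 reached no more than 3.61 and 2.05 CPM. Of these 8 only Epcam did not overlap, at 68.7 to 81.0 CPM in B220+ libraries and 19.99 to 49.0 CPM in B220− libraries (edgeR adjusted p = 0.170, and 0.0359 with DESeq2). The summed level of 6 myeloid markers was 20.7 to 21.4 CPM in B220+ libraries and 22.6 to 26.1 CPM in B220− libraries, and among them Lyz2 was called lower, at 0.303 ± 0.147 CPM in B220+ cells and 2.07 ± 0.573 CPM in B220− cells (edgeR adjusted p = 0.00200). The part of these markers in the values below was not tested. The groups differed in transcripts that mark T cell subsets. Cd4, the helper coreceptor, averaged 7.63 ± 0.839 CPM in B220+ cells and 177 ± 46.8 CPM in B220− cells, and Cd8b1, the CD8β chain, averaged 24.5 ± 4.89 CPM in B220+ cells and 215 ± 64.5 CPM in B220− cells (SD, n = 3 each). Cd8a, which encodes CD8α, was called higher, at 2810.3 ± 132 CPM in B220+ cells and 2184 ± 40.2 CPM in B220− cells, and so was the γδ receptor constant gene Trdc, at 995 ± 66.7 CPM in B220+ cells and 783 ± 34.6 CPM in B220− cells (edgeR adjusted p = 0.00779 and 0.00977). Each was called in 5 of 6 fits with a library omitted, with edgeR adjusted p up to 0.0537 for Cd8a and 0.0524 for Trdc. Gm43434, on the opposite strand of Trdc, had 30.05% as many counts and a log2 fold change of 0.33. In such bulk samples fewer cells of a type and less RNA per cell cannot be told apart, and any part of a subset difference in the values below was not tested.

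Bcl2l11 was higher in B220+ cells, while Pmaip1 and Bik were lower, and no survival or pore-forming gene passed the main test. With edgeR's quasi-likelihood test and Benjamini-Hochberg adjustment over the 14722 genes tested, 1 of the 10 genes was called higher and 2 lower, where 5.58% and 5.56% of all genes tested were called in those directions (11.1% in either). The median log2 fold change, B220+ over B220−, was 0.13 for the 10 genes and −0.0074 for all genes tested. The 3 B220+ libraries lay wholly above the B220− libraries for Bcl2l11, Bcl2 and Bcl2l1 and wholly below them for Mcl1, Bik and Pmaip1. That is 6 of 10 genes without overlap, against 28.1% of all genes tested (14.1% higher and 13.9% lower). The 10 genes were chosen with earlier results of these data known, so these shares are a description only.

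**Figure D1:**
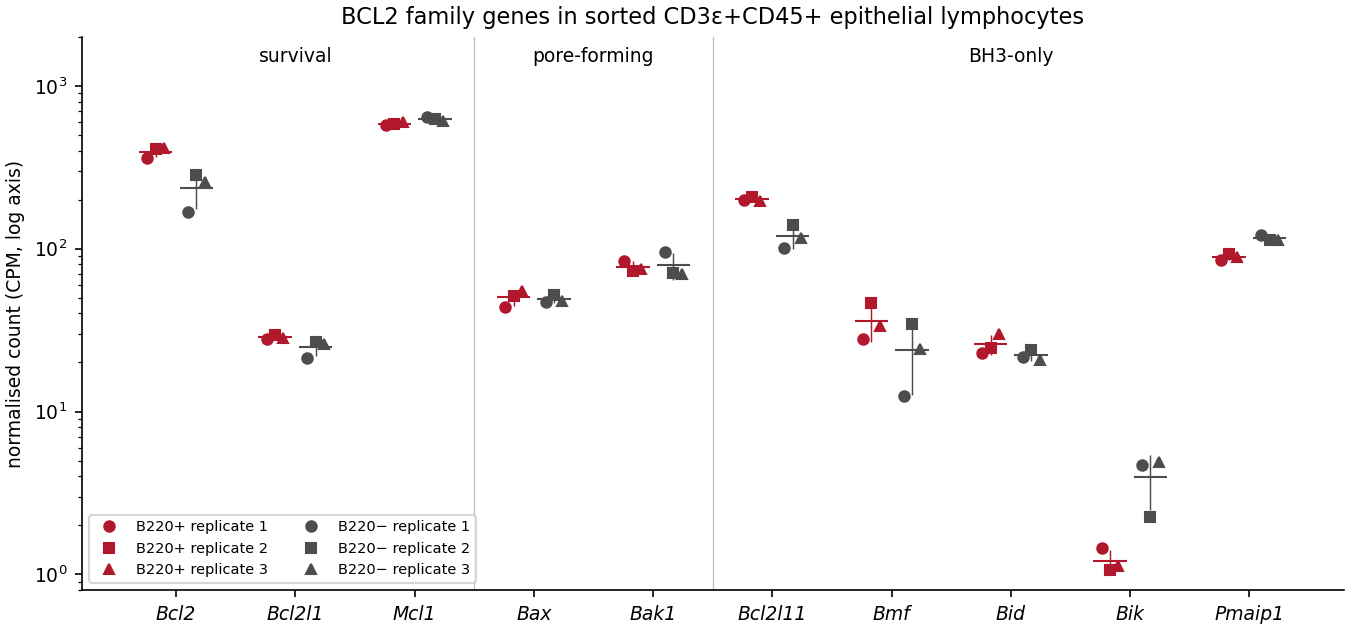
Normalised counts (CPM, log axis) of the 10 BCL2 family genes in each library, B220+ in red to the left of B220− in grey, with replicate number as the symbol, a horizontal line at the mean and a vertical line for ± SD (n = 3). Mcl1 stands highest and Bik lowest in both groups, and the B220− replicate 1 circle lies lowest for Bcl2, Bcl2l11 and Bmf.

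Bcl2l11 (ENSMUSG00000027381, mm10 chromosome 2, 128126038 to 128162547, plus strand) encodes BIM, a BH3-only protein that binds all the main survival proteins. It stood at 199.5, 207.3 and 196 CPM in B220+ replicates 1, 2 and 3, against 102, 140.1 and 116 CPM in B220− replicates 1, 2 and 3. All B220+ libraries were close to each other and well above the highest B220− library, which was replicate 2. The log2 fold change was 0.75 (SE 0.10), 1.69-fold, with an edgeR adjusted p of 0.000714. Gene counts do not separate the long and short BIM isoforms.

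Bcl2 (ENSMUSG00000057329, chromosome 1, 106538178 to 106714274, minus strand), the survival gene that gives the family its name, differed by nearly the same amount but with more spread. Its level was 362, 409 and 413 CPM in B220+ libraries and 167, 281 and 256 CPM in B220− libraries. The groups did not overlap, and B220− replicate 1 was far below the other two. The log2 fold change was 0.75 (SE 0.20), with an edgeR adjusted p of 0.0830 that did not pass the threshold of 0.05. The adjusted p was 0.00286 in edgeR with the replicate number as a block and 0.00799 with DESeq2 (17.5% and 12% of all genes tested were called by these rules). Without B220− replicate 1 the log2 fold change was 0.56 and the edgeR adjusted p 0.000265, and without B220− replicate 2 they were 0.90 and 0.0252. In the other 4 fits with a library omitted Bcl2 did not pass, with edgeR adjusted p up to 0.237 (without B220+ replicate 2). On the opposite strand, D630008O14Rik overlaps 558 exonic bases of Bcl2 and had 13.1% as many counts. Its log2 fold change was 0.81 (edgeR adjusted p = 0.122), and reads of the shared bases may not have been told apart.

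Bmf (ENSMUSG00000040093, chromosome 2, 118528757 to 118549687, minus strand), a BH3-only gene whose protein binds the dynein light chain, was at 28.0, 46.2 and 33.5 CPM in B220+ libraries. In B220− libraries it was at 12.5, 34.6 and 24.2 CPM. The groups overlapped, since B220− replicate 2 exceeded B220+ replicates 1 and 3, and the difference of 0.62 on the log2 scale, with an SE of 0.44, did not pass (edgeR adjusted p = 0.524). It was 0.30 without B220− replicate 1, 0.38 without B220+ replicate 2 and 1.02 without B220− replicate 2, and passed in none of these fits. Within each replicate number, however, the B220+ library was the higher one, by 1.16, 0.42 and 0.47 on the log2 scale for numbers 1, 2 and 3. With the replicate block Bmf was called higher, at 0.64 (SE 0.13, edgeR adjusted p = 0.00864). That the numbers pair the libraries was read from the data without a test and is not stated in the labels.

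Because Bcl2l11, Bcl2 and Bmf had the highest log2 fold changes of the 10 genes, the promoter windows at their 5′-most annotated start sites are shown, from 250 bases before to 50 bases after each RefSeq start (GRCm38.p6, the mm10 assembly), 5′ to 3′ on the gene's strand. Capitals mark the FOXO core motif, searched as GTAAACA on both strands.
Bcl2l11, chr2:128125788-128126087, plus strand: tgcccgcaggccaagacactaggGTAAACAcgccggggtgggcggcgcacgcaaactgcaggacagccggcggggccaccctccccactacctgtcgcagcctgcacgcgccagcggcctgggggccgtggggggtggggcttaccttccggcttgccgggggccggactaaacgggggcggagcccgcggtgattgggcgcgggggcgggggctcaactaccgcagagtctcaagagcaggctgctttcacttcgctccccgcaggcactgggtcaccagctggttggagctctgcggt
Bcl2, chr1:106714241-106714540, minus strand: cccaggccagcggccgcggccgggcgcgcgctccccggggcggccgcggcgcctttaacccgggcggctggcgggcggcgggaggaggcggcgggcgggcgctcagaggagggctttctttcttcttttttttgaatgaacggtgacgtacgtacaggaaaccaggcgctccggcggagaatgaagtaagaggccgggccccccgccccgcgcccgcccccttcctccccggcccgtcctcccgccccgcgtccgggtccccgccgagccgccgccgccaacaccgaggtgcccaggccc
Bmf, chr2:118549637-118549936, minus strand: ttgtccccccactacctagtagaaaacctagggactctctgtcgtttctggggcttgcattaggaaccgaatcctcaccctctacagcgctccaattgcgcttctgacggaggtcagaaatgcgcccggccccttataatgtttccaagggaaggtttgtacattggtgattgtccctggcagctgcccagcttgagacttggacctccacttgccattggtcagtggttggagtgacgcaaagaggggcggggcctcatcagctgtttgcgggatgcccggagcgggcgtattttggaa
FOXO proteins are transcription factors known to activate Bcl2l11 when cytokine signals fall. In all, 13 windows of 8 of the 10 genes were searched. No window of Bik or Pmaip1 was searched, so the matches given here do not cover those genes. The FOXO core was found in 1 of the 13 windows, the Bcl2l11 window shown here, where it begins 227 bases before the start site. It was found in 3.65% of 32817 promoter windows of the same length. A STAT motif, searched as TTCNNNGAA on both strands and not overlapping the FOXO core, was found in 0 of the 13 windows and in 8.29% of all windows. The GC content was 71.0% in this Bcl2l11 window, 76.0% in that of Bcl2 and 55.3% in that of Bmf, against a median of 52.7%. These matches describe letters only, and binding was not measured.

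**Figure D2:**
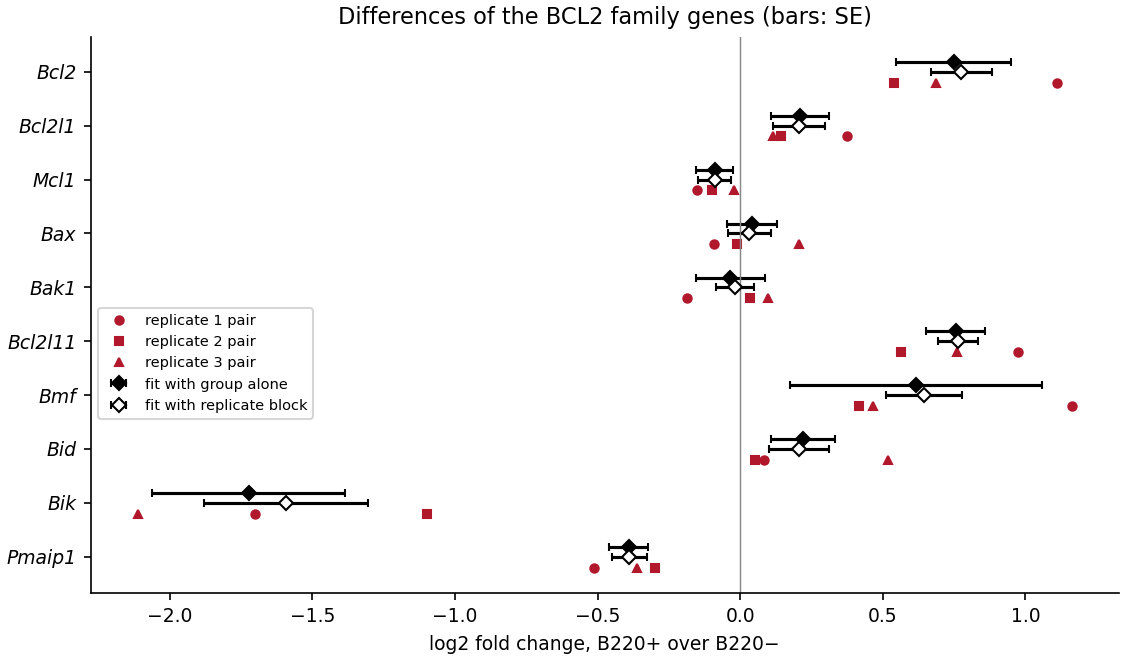
Log2 fold change of each gene, B220+ over B220−, with SE bars, from the fit with the group alone (filled diamonds) and with the replicate block (open diamonds), and the difference within each replicate number in red. For Bcl2, Bcl2l1, Bcl2l11, Bmf and Bid all 3 red points lie above 0, and for Mcl1, Bik and Pmaip1 all 3 lie below 0. The SE of Bmf is 0.44 without the block and 0.13 with it.

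Pmaip1 (ENSMUSG00000024521) encodes NOXA, a BH3-only protein that neutralises MCL1 and is a known target of p53. It was at 85.3, 92.3 and 88.4 CPM in B220+ libraries, against 122, 113.5 and 114 CPM in B220− libraries. Every B220+ library was lower than every B220− library, and the spread within each group was small. Pmaip1 fell 1.31-fold, a log2 fold change of −0.39 with an SE of 0.068 and an edgeR adjusted p of 0.00237.

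Bik (ENSMUSG00000016758, chromosome 15, 83526862 to 83544634, plus strand), a BH3-only gene whose protein sits mainly at the endoplasmic reticulum, had the largest change of the 10 genes and the lowest level. It had 17, 42 and 16 counts in B220+ libraries, or 1.44, 1.06 and 1.13 CPM. In B220− libraries it had 87, 40 and 56 counts, or 4.69, 2.27 and 4.90 CPM. The groups did not overlap, with B220− replicate 2 the lowest of its group. Bik fell 3.30-fold, with a log2 fold change of −1.72, an SE of 0.34 and an edgeR adjusted p of 0.00508, and at these counts the size is known only roughly. Bcl2l11, Pmaip1 and Bik were each called whichever single library was omitted (6 fits), and the highest edgeR adjusted p was 0.00908, 0.0151 and 0.0406 in that order.

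Bid, the BH3-only gene whose protein is cut by caspase-8 to link death receptors to mitochondria, was at 23.0, 24.7 and 29.7 CPM in B220+ libraries and 21.7, 23.9 and 20.7 CPM in B220− libraries. The groups overlapped, and the log2 fold change was 0.22 (SE 0.11, edgeR adjusted p = 0.284), or 0.12 without B220+ replicate 3. Bid overlaps Bcl2l13 on the opposite strand over 628 exonic bases, and Bcl2l13 had 369% as many counts, so part of the Bid signal is uncertain.

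Among the remaining survival genes, Mcl1, whose short-lived protein is needed by nearly all lymphocytes, was the most abundant of the 10 genes. It was at 578, 582 and 597 CPM in B220+ libraries and 641, 623 and 606 CPM in B220− libraries. The groups were separated by a narrow gap, and the log2 fold change was −0.090 (SE 0.065, edgeR adjusted p = 0.482). Bcl2l1 was at 27.7, 29.5 and 28.3 CPM in B220+ libraries and 21.4, 26.7 and 26.1 CPM in B220− libraries. Its log2 fold change was 0.21 (SE 0.10, edgeR adjusted p = 0.258). It was 0.11 when B220− replicate 1 was omitted. Counts do not separate the long survival form of its mRNA from the short death-promoting one.

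The pore-forming genes had the smallest differences. Bax was at 44.0, 51.5 and 55.1 CPM in B220+ libraries and 46.9, 52.0 and 47.7 CPM in B220− libraries, for which the log2 fold change was 0.042 with an SE of 0.088 (edgeR adjusted p = 0.849). Bak1 was at 84.2, 72.6 and 75.2 CPM in B220+ libraries and 95.8, 70.9 and 70.2 CPM in B220− libraries, for which it was −0.035 with an SE of 0.12 (edgeR adjusted p = 0.910). Both genes overlapped between groups, and the sign of each depended on single libraries: without B220+ replicate 3 that of Bax was −0.022, and without B220− replicate 1 that of Bak1 was 0.13. Bak1 shares 437 exonic bases with Ggnbp1 on the opposite strand, which had 40.7% as many counts.

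Levels were compared between genes as RPKM, which is CPM per kilobase of exonic length. In B220+ cells Mcl1 stood at 171 ± 2.97 RPKM, followed by Bcl2 at 43.1 ± 3.11 RPKM. Pmaip1, Bak1 and Bax followed at 32.5 ± 1.29, 32.1 ± 2.54 and 31.9 ± 3.59 RPKM and did not differ beyond their spread, and Bcl2l11 was next at 25.0 ± 0.711 RPKM. Bid, Bmf and Bcl2l1, at 7.27 ± 0.984, 6.83 ± 1.77 and 6.22 ± 0.198 RPKM, again lay within their spread, and Bik was last at 0.761 ± 0.128 RPKM (SD, n = 3). In B220− cells Mcl1 was at 182 ± 5.20 RPKM and Pmaip1 second at 42.6 ± 1.72 RPKM. Bak1, Bax and Bcl2 stood at 32.8 ± 6.06, 31.0 ± 1.72 and 25.7 ± 6.55 RPKM within each other's spread, and Bcl2l11 at 14.8 ± 2.43 RPKM. Bid, Bcl2l1 and Bmf were at 6.22 ± 0.452, 5.40 ± 0.640 and 4.52 ± 2.1 RPKM, and Bik at 2.48 ± 0.919 RPKM. The order of these mean levels has no test.

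Ratios between genes within a library do not depend on the scaling between libraries, and they are given as a description, from counts per kilobase. Bcl2l11 and its binding partner Bcl2 had nearly the same ratio in both groups. It was 0.629, 0.579 and 0.542 in B220+ libraries and 0.692, 0.568 and 0.515 in B220− libraries, so the groups overlapped, and the mean log2 ratio differed by −0.012. The ratio of Bcl2 to Mcl1, chosen after the values were seen, was 0.234, 0.262 and 0.258 in B220+ libraries and 0.0974, 0.169 and 0.158 in B220− libraries. It did not overlap and was 1.83-fold higher in B220+ cells. Bcl2l11 against the summed survival genes Bcl2, Bcl2l1 and Mcl1 was 0.116, 0.117 and 0.108 in B220+ libraries and 0.0601, 0.0797 and 0.0684 in B220− libraries, 1.65-fold higher in B220+ cells, again without overlap. Mcl1 makes up most of that sum in every library.

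**Figure D3:**
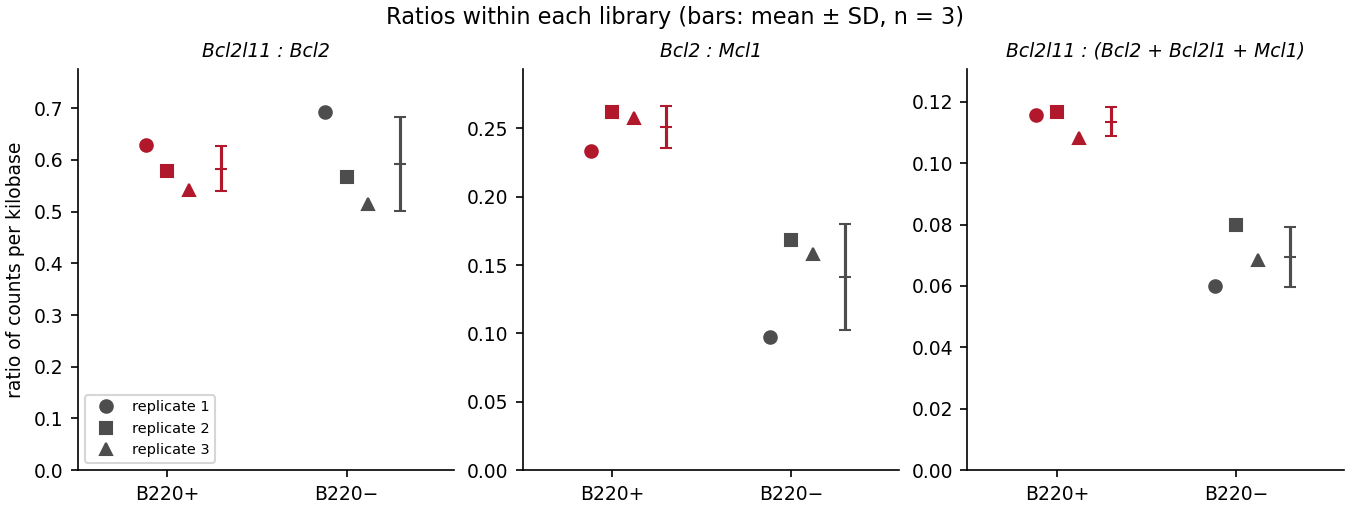
Ratios of counts per kilobase within each library, B220+ to the left of B220−, with replicate number as the symbol and the mean ± SD (n = 3) beside the points. Bcl2l11 to Bcl2 overlaps between groups, at 0.583 ± 0.0439 in B220+ and 0.592 ± 0.0911 in B220−, while Bcl2 to Mcl1 and Bcl2l11 to the 3 survival genes do not overlap.

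B220− replicate 1 had the lowest Bcl2, Bcl2l11, Bmf and Bcl2l1 of the 6 libraries and the highest Pmaip1, Mcl1 and Bak1. The same library had the highest Cd4 (215 CPM) and Cd8b1 (288 CPM) and the lowest Il2rb (695 CPM), whereas B220− replicate 2 had the lowest Cd4 (125 CPM) and Cd8b1 (164 CPM) and the highest Bcl2l11, Bcl2 and Bmf of the B220− group. Whether the subset mix differed, and any part of it in these differences, was not tested.

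**Figure D4:**
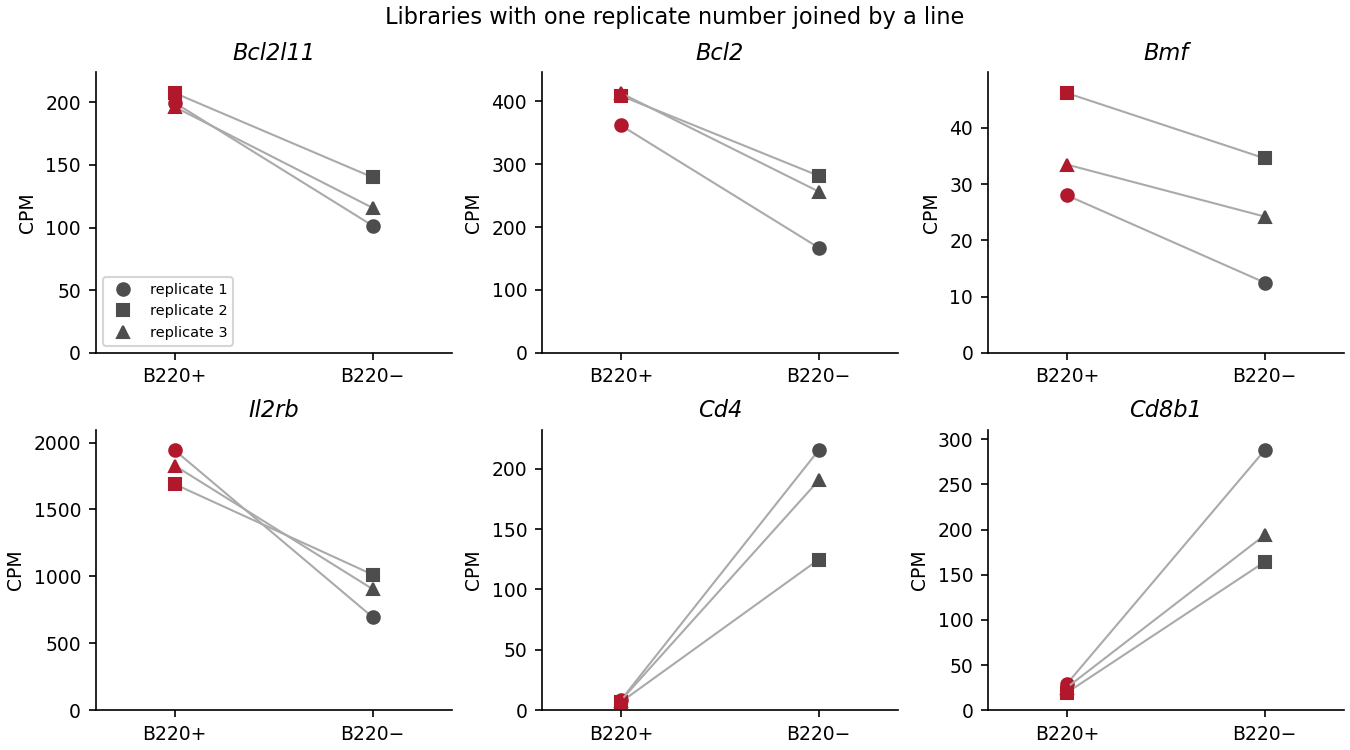
CPM of Bcl2l11, Bcl2, Bmf, the cytokine receptor gene Il2rb and the coreceptor genes Cd4 and Cd8b1, B220+ left and B220− right, with libraries of one replicate number joined by a line. All 3 lines of Bcl2l11, Bcl2, Bmf and Il2rb are higher at B220+, those of Cd4 and Cd8b1 are higher at B220−, and Bmf is highest in replicate 2 and lowest in replicate 1 of each group.

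The wider BCL2 family and its setting were read from lists that, like the 10 genes, were chosen with earlier results of these data known. Of 16 other BCL2 family genes, 10 were tested, and 2 were called higher and 0 lower by edgeR, where 5.58% and 5.56% of all genes tested were called. With the replicate block and with DESeq2 the calls were also 2 higher and 0 lower, where 17.5% and 12% of all genes tested were called. At an unadjusted edgeR p under 0.05, 3 were higher and 0 lower, against 11.6% and 10.9% of all genes tested. The median log2 fold change of the 10 was 0.077. The genes called were Bcl2l15, a little-studied gut-expressed member, at 14.1 ± 2.46 CPM in B220+ cells and 9.25 ± 2.01 CPM in B220− cells, and Bnip3, a mitophagy receptor, at 11.8 ± 1.36 CPM in B220+ cells and 7.72 ± 1.37 CPM in B220− cells. Their edgeR adjusted p was 0.0442 and 0.0286, and each was called in only 2 of 6 fits with a library omitted, and the highest adjusted p was 0.246 and 0.115, both without B220+ replicate 2. Bnip3 shares 504 exonic bases with Gm45507 on the opposite strand, which had 48.2% as many counts and a log2 fold change of 0.61. The most expressed genes that did not pass were Bnip3l (log2 fold change 0.037), Bcl2l13 (0.17) and Bcl2a1d (−0.071), and the near-identical Bcl2a1 copies can share reads. Of the 6 not tested, Bcl2l10 and Hrk had no count in any library.

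Downstream of the pore, 1 of 13 genes of mitochondrial release and the apoptosome was called higher and 0 lower by edgeR. With the replicate block the calls were 2 higher and 0 lower, and with DESeq2 1 and 0. These rules called 17.5% and 12% of all genes tested. The edgeR call is 7.69% of the list, below the 11.1% of all genes tested, with a median log2 fold change of 0.056. At an unadjusted edgeR p under 0.05, 3 were higher and 0 lower, against 11.6% and 10.9% of all genes tested. Dnm1l, the mitochondrial fission GTPase, stood at 114 ± 4.08 CPM in B220+ cells and 91.8 ± 4.01 CPM in B220− cells (edgeR adjusted p = 0.00900, and 0.0502 without B220+ replicate 2). Htra2, Vdac2 and Apaf1, the most expressed of those that did not pass, had log2 fold changes of 0.079, −0.076 and −0.039. Htra2 shares exonic bases with Aup1 and Loxl3 on the opposite strand, which had 184.7% and 18.7% as many counts. Casp9, the initiator caspase of the apoptosome, had a log2 fold change of 0.28 and was the gene added with the block (edgeR adjusted p = 0.0895, and 0.0315 with the block).

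Of 18 genes that regulate or bind BCL2 family proteins, 2 were called higher and 0 lower by edgeR (3 and 1 with the replicate block, 2 and 1 with DESeq2, 3 and 2 at an unadjusted p under 0.05). The edgeR share called, 11.1%, equals that of all genes tested. Of all genes tested, 17.5% were called with the replicate block and 12% with DESeq2. At an unadjusted edgeR p under 0.05, 11.6% of them were higher and 10.9% lower. The median log2 fold change of the list was 0.021. Mapk3, which encodes ERK1, a kinase that marks BIM for degradation, stood at 106 ± 2.51 CPM in B220+ cells and 79.4 ± 8.82 CPM in B220− cells (edgeR adjusted p = 0.00495). Foxo1, a FOXO factor, stood at 258 ± 10.5 CPM in B220+ cells and 207 ± 11.4 CPM in B220− cells (edgeR adjusted p = 0.00959, and 0.0550 without B220− replicate 3), and its antisense neighbour Gm20402 had 20.2% as many counts. Foxo3 (log2 fold change −0.033) and Trp53 (0.13) did not pass. Nor did Tpt1 (−0.23), Ywhaz (−0.033) or Huwe1 (0.055), the most expressed of the list that were not called, although Tpt1 had an edgeR adjusted p of 0.0283 with the block. Fbxw7 (0.30) had an edgeR adjusted p of 0.0631, and 0.00606 with the block.

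Among 14 genes of survival cytokine receptors and their kinases, 1 was called higher and 2 lower (2 and 4 with the replicate block), or 21.4% of the list against 11.1% of all genes tested (17.5% with the block), with a median log2 fold change of −0.034. Il2rb, the receptor chain for interleukin-2 and interleukin-15, stood at 1942, 1689 and 1827 CPM in B220+ libraries and 695, 1013 and 905 CPM in B220− libraries (log2 fold change 1.06, SE 0.13, edgeR adjusted p = 0.000471). Il7r, the interleukin-7 receptor chain, was at 18.9 ± 4.58 CPM in B220+ cells and 128 ± 26.5 CPM in B220− cells and fell 6.95-fold. Il2ra, the high-affinity interleukin-2 receptor chain, was at 2.16 ± 0.460 CPM in B220+ cells and 10.8 ± 3.17 CPM in B220− cells and fell 4.92-fold (edgeR adjusted p 0.00244 and 6.2e-05 for Il7r and Il2ra). Jak1, Jak3 and Pim1, the most expressed genes of this list that did not pass, had log2 fold changes of −0.039, 0.098 and −0.029. The genes added with the block were Pim2 (0.32), Il4ra (−0.20) and Stat5b (−0.19), with edgeR adjusted p of 0.000513, 0.0235 and 0.0271. With DESeq2 2 were called higher and 2 lower, against 12% of all genes tested. At an unadjusted edgeR p under 0.05, 2 were higher and 4 lower, against 11.6% and 10.9% of all genes tested.

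**Figure D5:**
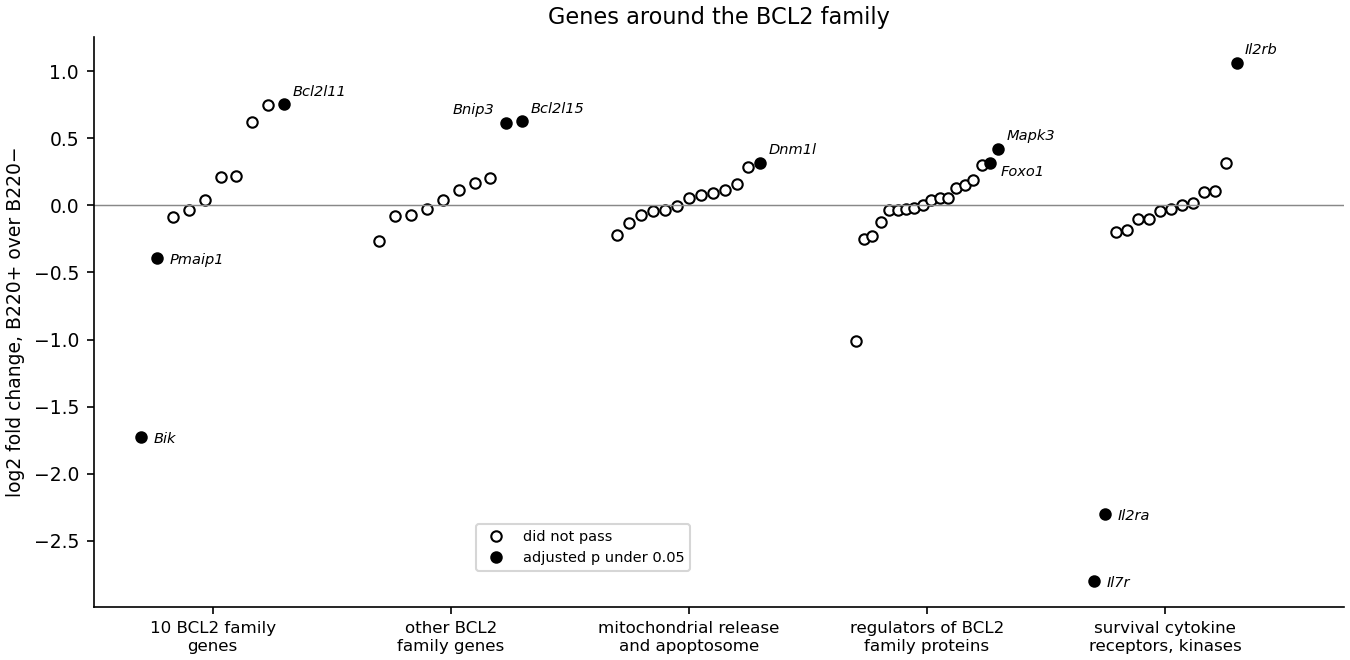
Log2 fold change, B220+ over B220−, of each tested gene of the 10 BCL2 family genes and of 4 surrounding lists, ordered by value within a list, with filled points for an edgeR adjusted p under 0.05. Il2rb is the highest point at 1.06 and Il7r the lowest at −2.80, and Bik at −1.72 is the lowest of the 10 genes.

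For each of the 3 genes called, the other genes with the most similar log2 CPM over the 6 libraries were looked up. They were Tacc2, Filip1 and Fut8 for Bcl2l11 (Pearson's r 0.999, 0.998 and 0.998), Riok3, Gm28875 and Mtap for Bik (0.998, 0.996 and 0.995), and Nfatc2, Xxylt1 and Gm15655 for Pmaip1 (0.999, 0.998 and 0.997). With so few libraries such values are common: 547, 172 and 350 genes reached an r of 0.95 with Bcl2l11, Bik and Pmaip1.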

How the data were processed

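The 10 genes and all lists were chosen with earlier results of these data known. The authors deposited raw read counts per gene for 6 libraries made with a directional kit, per the labels' protocols. The submitters' processing notes name the build mm10 and the tools featureCounts 1.6.3, HISAT2 2.1.0, Trimmomatic 0.38, SAMtools 1.9 and FastQC 0.11.7. The strand setting of the counting was not given in the sources used here, so reads of genes overlapping on opposite strands were treated as not distinguishable. Exonic lengths came from GENCODE release M21, in which 98.7% of the gene models had the deposited coordinates, and promoters from RefSeq.

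Genes were tested with edgeR 4.0.16 in R 4.3.3: TMM scaling, filterByExpr with a minimum count of 10 and a minimum total of 15, a quasi-likelihood fit (robust) with the group alone, and Benjamini-Hochberg adjusted p under 0.05. SEs are the log2 fold change divided by the square root of F. CPM uses TMM-scaled totals over tested genes, and similarity used log2 CPM with a prior count of 2. Named genes are the 10 genes, every called gene of the other lists, the 3 most expressed genes not called in each list, and the 3 most similar genes of each called gene. Casp9, Foxo3, Trp53, Fbxw7, Pim2, Il4ra, Stat5b, Bcl2l10 and Hrk were named besides, after their values were seen.

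Libraries of 1 group differed by a chi-square of 7.38 to 16.5 per degree of freedom, beyond sampling noise, so none was taken as a repeat sequencing of another. The chi-square cannot tell separate mice from separate preparations of the same sample. Deviations from the group means correlated across genes at 0.295, 0.246 and 0.272 for B220+ and B220− libraries with the same replicate number in the titles, and at −0.20 to −0.068 otherwise. Each same-number value is over 0.1, so the numbers were read as pairing the libraries, from the data and not from the labels. Deviations within a group cancel out for each gene by construction, so positive same-number values push the other values towards negative ones. The pairing itself was not tested. The main fit stayed without the pairing, and the block is an alternative given where it changes a call. Alternatives were DESeq2 1.42.0, median-ratio (RLE) factors, no filter on low counts, no robust option, the replicate block, raw-total CPM, and leaving out each library.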

Additional observations from a re-analysis of the deposited data

How the results depend on the processing

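The direction of Bcl2l11, Bcl2, Bcl2l1, Mcl1, Bid, Bmf, Bik and Pmaip1 was the same in all fits run, and Bcl2l11, Bik and Pmaip1 were called in all of them. Bcl2 (edgeR adjusted p = 0.0830) passed with the replicate block, with DESeq2 (0.00799), without the robust option (edgeR adjusted p = 0.0128), with no filter on low counts (edgeR adjusted p = 0.0371) and without B220− replicate 1 or 2. Of the 10 genes, 3 were called, 5 with the replicate block (Bcl2 and Bmf added) and 3 to 4 when 1 library was left out. Leaving out 1 library gave log2 fold changes of −0.022 to 0.12 for Bax and −0.11 to 0.13 for Bak1. Over all genes 1639 were called (11.1% of those tested), and 2569 with the replicate block (17.5%). With 1 library left out 970 to 1789 were called (970 without B220+ replicate 2, 1029 without B220− replicate 3). Calls among other BCL2 family genes numbered 2, 1 without the robust option and 0 to 2 with 1 library left out. For mitochondrial release and the apoptosome there was 1 call, 2 with the block and 0 to 1 with 1 library left out. The regulators had 2 calls, 4 with the block or with no filter, and 1 to 3 with 1 library left out. The survival cytokine list had 3 calls, 6 with the block and 3 to 4 with 1 library left out. The cause of these shifts was not tested. Depth limits Bik most, with 75 counts in all B220+ libraries together and 183 in all B220− libraries.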
